A study of Arabidopsis thaliana with 12 samples.

Results

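The genes described here make the pigments and tetrapyrroles of the chloroplast. They are CHLM, AT1G74470, SIRB and Z-ISO, 4 of the 3438 features on the array, each measured by a probe with a single gene name. They are not all such genes: HEMA3, a further tetrapyrrole synthesis gene on a single-name probe, is described below. One group of plants was wild-type Arabidopsis thaliana (thale cress, ecotype Columbia 0) that spent 24 h at 4 °C in medium light, which the submitters call photoinhibitory, and the group it was set against was wild type of the same ecotype grown in medium light at 20 °C. Each group had 6 arrays of total RNA, and the labels give neither organ nor age. Neighbouring arrays of a group (1 with 2, 3 with 4, 5 with 6) deviated together from the group mean, so each such pair counts as 1 sample, with n = 3 per group. The labels do not say that pairs are different plants. The p-values below therefore cover the spread among these pairs alone, and that spread may be technical.

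Tetrapyrroles are built in the plastid from glutamate through a shared trunk. The siroheme branch leaves it at uroporphyrinogen III, and at protoporphyrin IX the pathway divides again into a magnesium branch to chlorophyll and an iron branch to heme. SIRB, sirohydrochlorin ferrochelatase, inserts iron in the last step of siroheme synthesis, and siroheme is the cofactor of nitrite and sulfite reductase. CHLM, magnesium-protoporphyrin IX methyltransferase, acts on the magnesium branch soon after magnesium is inserted. AT1G74470 encodes geranylgeranyl reductase, which makes the phytyl tail of chlorophyll and of tocopherol. Z-ISO, 15-cis-zeta-carotene isomerase, acts early in carotenoid synthesis, between phytoene desaturase and zeta-carotene desaturase. Carotenoids serve in the photosystems as antenna pigments and quench triplet chlorophyll and singlet oxygen.

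The deposited values are linear intensities already scaled within each array, with means per array of 1.02 to 1.09. A value is therefore read here as relative to its own array, not as an amount of RNA. What the arrays were scaled to was not given. Array medians were 0.276 to 0.315 at 4 °C and 0.536 to 0.569 at 20 °C, and the median log2 change over the 3378 features above 0 on at least 1 array was -0.74. Levels of different probes cannot be set against each other, so each gene is compared with itself across arrays, and the scaling of the arrays is varied for every gene. In bulk RNA, fewer cells of a type and less RNA per cell cannot be told apart.

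As deposited, 3 of the 4 genes fell at 4 °C: CHLM, SIRB and Z-ISO passed an adjusted p of 0.05 in limma on pair means, and AT1G74470 did not pass. Of all 3378 features 49.6% were called lower by the same rule, so the count of 3 in 4 stands near the general fall. The median log2 change of the 4 genes was -1.65, against -0.74 over all features. That median falls between CHLM (-1.97) and SIRB (-1.34), and the 4 changes ran from -7.92 (Z-ISO) to -0.07 (AT1G74470). It therefore does not describe the 4 genes as a set. The genes differed from one another in their rank on the array. Z-ISO lay at percentiles of 3.01 to 28.4 at 4 °C, against 90.7 to 94.6 at 20 °C. The rank of CHLM shifted by -29.1 percentile points. The ranks of SIRB and AT1G74470 shifted by -4.14 and -1.08 points.

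On the 6 arrays at 4 °C the CHLM intensity was 0.176, 0.240, 0.195, 0.183, 0.229 and 0.217, and on the 6 at 20 °C it was 0.719, 0.801, 0.844, 0.914, 0.747 and 0.812. The groups did not overlap, and the highest value at 20 °C came from arrays 3 and 4. The mean was 0.207 ± 0.0166 at 4 °C and 0.806 ± 0.0637 at 20 °C (SD over pair means, n = 3). CHLM fell 3.92-fold (95% interval 3.10 to 4.95), a log2 change of -1.97 ± 0.14 (SE) with an adjusted p of 0.00038 in limma. Relative to the median change of all features it stood at -1.22 on the log2 scale. The log2 change was -1.06 with median centring, -1.11 after quantile normalization and -1.04 after cyclic loess, and CHLM passed each time, with adjusted p-values of 0.0035, 0.0037 and 0.0042. These fits called 18.9%, 20.5% and 20.8% of all features lower, and 15.2% were lower in all of them and as deposited.

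SIRB was a dim probe. Its intensity on the arrays at 4 °C was 0.0936, 0.212, 0.129, 0.134, 0.104 and 0.152, and on those at 20 °C it was 0.302, 0.324, 0.415, 0.391, 0.286 and 0.314. No array at 4 °C reached the lowest at 20 °C, and array 2 was the highest of its group while its partner, array 1, was the lowest. The mean was 0.138 ± 0.0134 at 4 °C and 0.338 ± 0.0562 at 20 °C (SD, n = 3). SIRB fell 2.53-fold as deposited (95% interval 1.91 to 3.34), with a log2 change of -1.34 ± 0.16 (SE) and an adjusted p of 0.0014 in limma. This SE leaves out the spread between arrays 1 and 2 at 4 °C, which were averaged first. With all 12 arrays fitted and the pair as a random block, the SE was 0.40 (adjusted p = 0.013 in limma). That fit sets 1 within-pair correlation, 0.71, for all features, although arrays 1 and 2 at 4 °C lay far apart for SIRB. With the 12 arrays fitted as single samples, which ignores the pairs, the SE was 0.19. The call was lost under each other scaling, where the log2 change was -0.42 with median centring, -0.22 after quantile normalization and -0.22 after cyclic loess (adjusted p = 0.072, 0.24 and 0.25 in limma). Relative to the median change of all features SIRB stood at -0.59 on the log2 scale.

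For AT1G74470 the arrays at 4 °C had intensities of 2.69, 2.48, 2.59, 2.66, 2.42 and 2.32, and those at 20 °C had 3.07, 2.86, 2.53, 2.55, 2.37 and 2.54. The groups overlapped, and arrays 1 and 2 at 20 °C stood above all others. The mean was 2.53 ± 0.137 at 4 °C and 2.65 ± 0.272 at 20 °C (SD, n = 3). The log2 change was -0.07 with a 95% interval of -0.41 to 0.27 (adjusted p = 0.70 in limma). Without arrays 1 and 2 at 20 °C it was 0.01. With median centring the gene was called higher, at 0.85 (adjusted p = 0.0066 in limma, where 30.0% of features were called higher), while quantile normalization and cyclic loess gave -0.22 and -0.26 with no call (adjusted p = 0.16 and 0.14 in limma).

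Z-ISO showed the widest separation. At 4 °C its intensity was 0.112, 0.156, 0.00700 and 0.0457 on arrays 1 to 4, and arrays 5 and 6 listed it at 0. At 20 °C the arrays gave 2.68, 2.71, 2.01, 1.91, 2.34 and 2.30. Every array at 20 °C was thus above every array at 4 °C. The mean was 0.0534 ± 0.0709 at 4 °C and 2.33 ± 0.367 at 20 °C (SD, n = 3), and no fold is given because of the values at 0.

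With those values set to the lowest signal on their array, the log2 change of Z-ISO was -7.92 ± 2.08 (SE, adjusted p = 0.021 in limma), a size that depends on that floor. It was -5.57 ± 0.83 with the values of 0 left out, which removes arrays 5 and 6 at 4 °C, and -3.97 ± 0.32 with 0.111 added to every value before log2. The adjusted p was 0.0030 and 0.00042 in those limma fits. The call was lost after quantile normalization (adjusted p = 0.054, log2 change -7.76) and, with values at the floor, when arrays 1 and 2, 3 and 4, or 5 and 6 at 20 °C were left out (adjusted p = 0.056, 0.061 and 0.060 in limma, log2 changes of -7.81, -8.04 and -7.92). It held with median centring and after cyclic loess (adjusted p = 0.033 and 0.0497). Without arrays 1 and 2 at 4 °C the log2 change was -9.82.

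**Figure D1:**
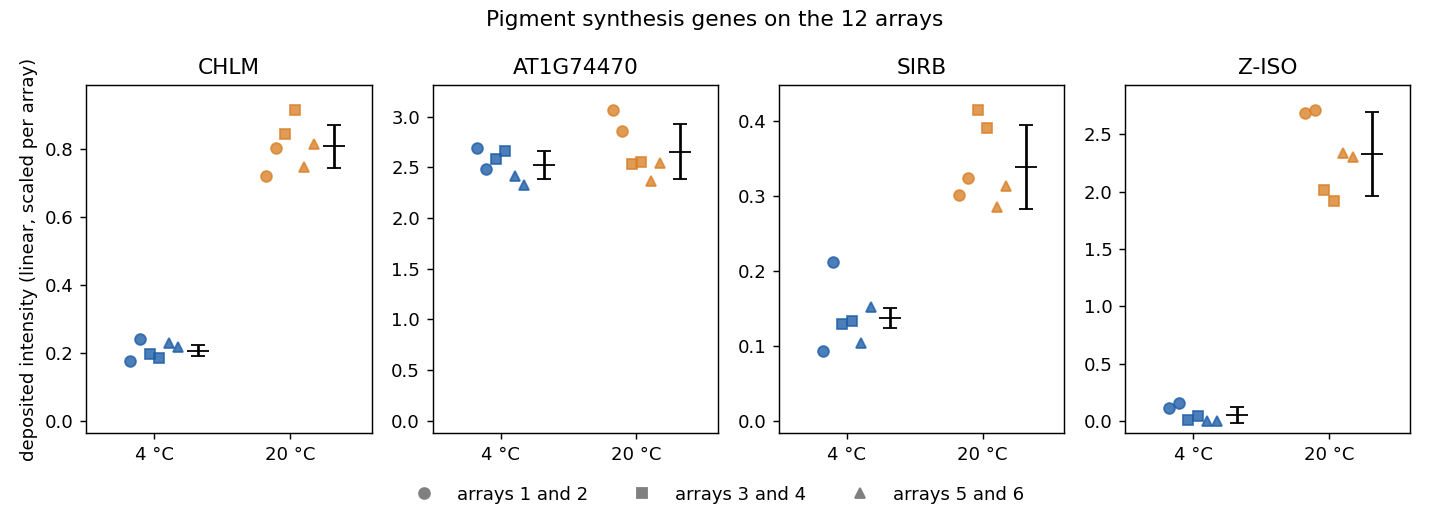
Deposited intensity (linear axis, own range for each gene) of CHLM, AT1G74470, SIRB and Z-ISO on each array at 4 °C (blue, left) and 20 °C (orange, right), with marker shapes for the pairs of arrays. Black bars are the mean ± SD of 3 pair means. CHLM, SIRB and Z-ISO are lower on all 6 arrays at 4 °C than on any at 20 °C, whereas AT1G74470 overlaps.

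In all, 3 of the 4 genes were lower on every array at 4 °C than on every array at 20 °C, as were 48.9% of all features. The percentile rank of a probe within its own array does not change when the array is rescaled, and it was taken after the intensities had been seen. CHLM had percentiles of 31.7 to 43.5 at 4 °C and of 62.9 to 71.5 at 20 °C, with means of 37.6 ± 4.44 and 66.7 ± 3.05 (SD, n = 3). Its shift was -29.1 points, and 5.98% of features, CHLM included, shifted as low or lower. SIRB averaged 25.4 ± 2.51 at 4 °C and 29.5 ± 4.70 at 20 °C, the groups overlapped, and 34.2% of features shifted as low or lower. AT1G74470 stayed within 92.9 to 93.7 at 4 °C and 93.6 to 95.3 at 20 °C. Z-ISO had percentiles of 3.01 to 28.4 at 4 °C and of 90.7 to 94.6 at 20 °C, with those on arrays 5 and 6 at 4 °C set by the tie of all probes at 0. It was thus below the median probe on all 6 arrays at 4 °C and among the bright probes on all 6 at 20 °C.

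**Figure D2:**
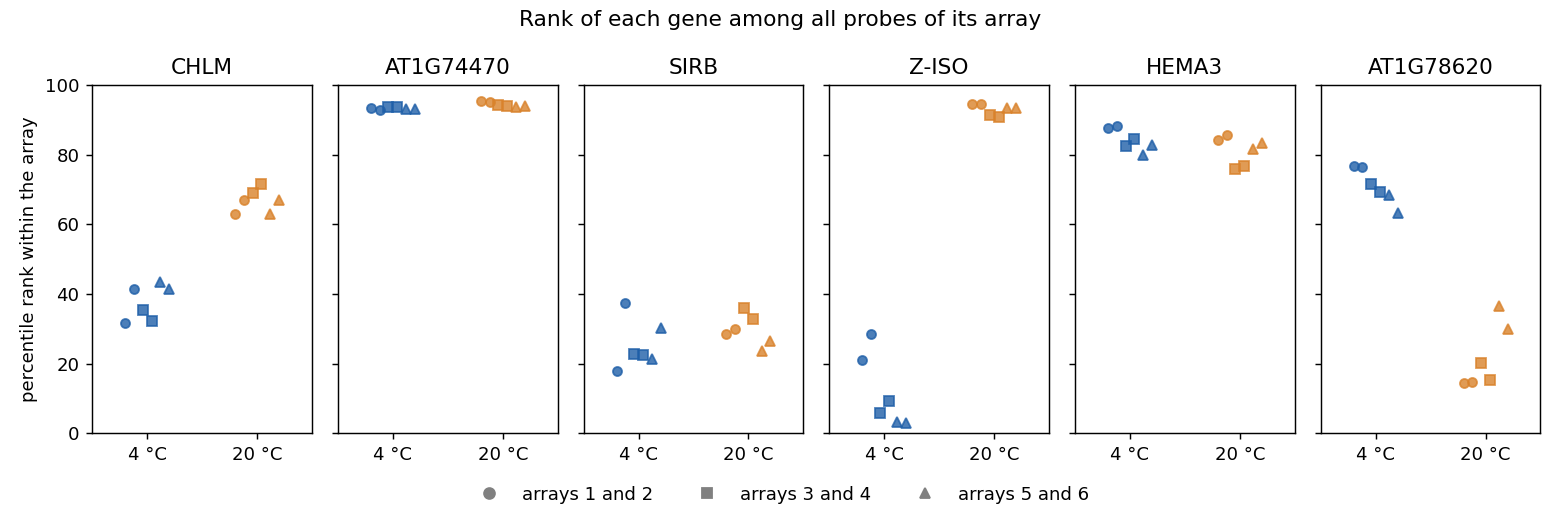
Percentile rank within the array (0 lowest, 100 highest) of the 4 genes and of HEMA3 and AT1G78620, for each array at 4 °C (blue, left) and 20 °C (orange, right), with marker shapes for the pairs. Z-ISO lies at or below 28.4 at 4 °C and at or above 90.7 at 20 °C, CHLM differs less, SIRB overlaps between groups, and AT1G78620 is higher at 4 °C.

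Ratios of probes on the same array compare how far the genes changed, free of any constant scaling. The log2 ratio of CHLM to AT1G74470 was -3.62 ± 0.19 at 4 °C and -1.72 ± 0.22 at 20 °C (SD, n = 3), a difference of -1.90, and no array of one group overlapped the other. The ratio of AT1G74470 to SIRB was 4.25 ± 0.06 at 4 °C and 2.98 ± 0.30 at 20 °C, a difference of 1.27, again without overlap between arrays. The ratio of CHLM to SIRB was 0.63 ± 0.16 at 4 °C and 1.26 ± 0.13 at 20 °C, a difference of -0.63, with arrays of the groups overlapping between 1.02 and 1.13. In each of these 3 comparisons the exact two-sided permutation test over pair means gave p = 0.10, the smallest that 3 against 3 allows, so no difference can pass 0.05. Quantile normalization and cyclic loess, which move dim and bright probes by different amounts, left -0.90 and -0.78 for CHLM to AT1G74470 and -0.89 and -0.82 for CHLM to SIRB. They left 0.01 and -0.04 for AT1G74470 to SIRB.

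**Figure D3:**
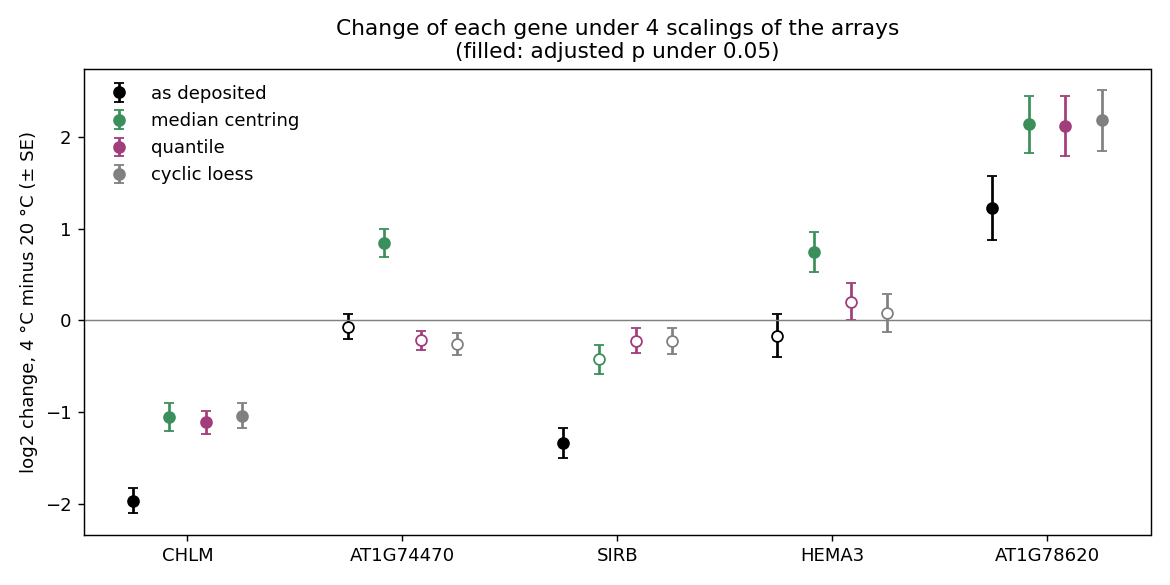
Log2 change (4 °C minus 20 °C, limma on pair means, bars ± SE) of 5 genes under 4 scalings of the arrays, with filled points for an adjusted p under 0.05. CHLM is below 0 and filled under every scaling, SIRB only as deposited, AT1G74470 and HEMA3 pass as higher only with median centring, and AT1G78620 is above 0 and filled under every scaling.

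The size of a change moved with brightness across the array. Z-ISO, with 2 arrays at 0, was outside the features used here. When the 3107 features above 0 on all arrays were split into 10 equal groups by mean intensity, CHLM fell in group 6, counted from the dimmest, where the median log2 change was -0.86 and 14.1% of features had a lower change than CHLM. SIRB lay in group 2, with a median of -0.94, and 31.2% of that group had a lower change. AT1G74470 lay in group 10, the brightest, with a median of 0.33, and 24.8% of that group had a lower change. The part of brightness in these results was not tested.

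**Figure D4:**
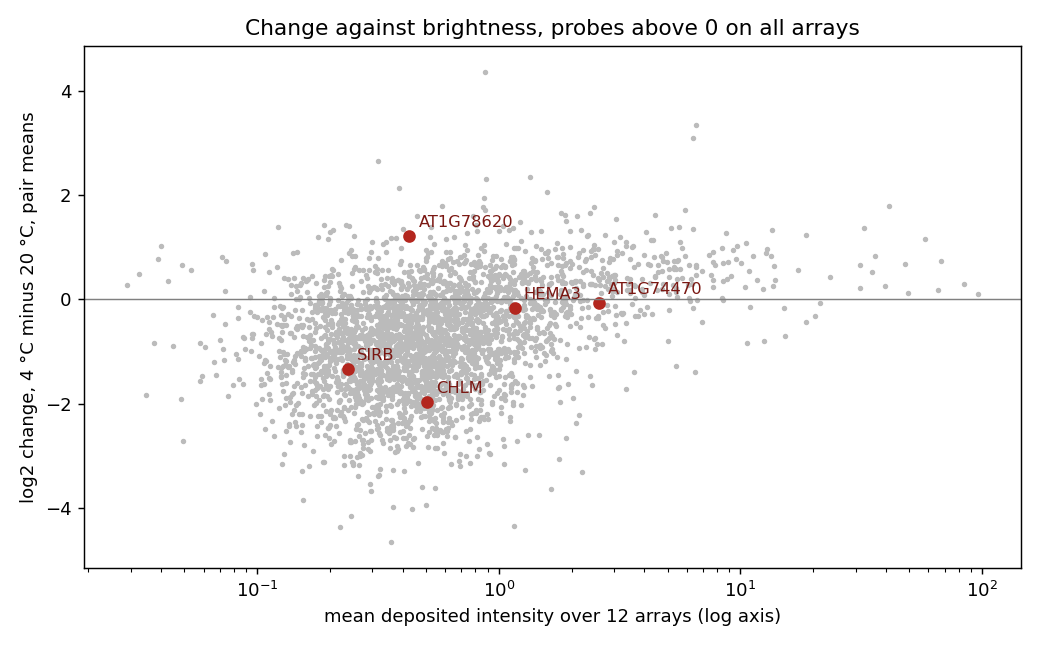
Log2 change (4 °C minus 20 °C, pair means) against mean deposited intensity over 12 arrays (log axis) for the 3107 features above 0 on all arrays, with the named genes in red. The cloud lies lower among dim probes than among bright ones, CHLM lies in the lower part of it, and AT1G78620 lies above nearly all probes of its brightness. Z-ISO is not drawn because 2 arrays list it at 0.

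Within groups the genes did not move alike. At 20 °C arrays 3 and 4 gave the highest pair mean for CHLM and SIRB (0.879 and 0.403) and the lowest for Z-ISO (1.96), while arrays 1 and 2 gave the highest for AT1G74470 and Z-ISO (2.96 and 2.70). At 4 °C arrays 1 and 2 gave the highest pair mean for SIRB and Z-ISO (0.153 and 0.134), arrays 3 and 4 for AT1G74470 (2.62), and arrays 5 and 6 for CHLM (0.223). The coefficient of variation over pair means was 8.05% for CHLM, 9.72% for SIRB and 5.42% for AT1G74470 at 4 °C, against a median of 18.3% over all features there. The SIRB figure leaves out the spread between arrays 1 and 2 at 4 °C, 0.0936 and 0.212, which were averaged first. For Z-ISO the coefficient was 133% at 4 °C, where values lay at or near 0. At 20 °C it was 7.90%, 16.6% and 10.3%, and 15.8% for Z-ISO, against a median of 13.8%.

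A wider list of 96 genes was drawn up for chlorophyll synthesis and breakdown, heme and siroheme, carotenoids and their cleavage, plastid isoprenoids, and phytol and tocopherol. Of these, 6 had a probe with a single gene name, 6 lay on 4 probes with several names that were not used, and 84 had neither in the annotation used. No gene of chlorophyll breakdown, of carotenoid cleavage or of the plastid isoprenoid pathway had a single-name probe there. Among the 6 measured genes, 3 were lower, 1 was higher and 2 were not called as deposited, beside 49.6% of all features lower and 6.87% higher. The median log2 change of the 6 was -0.75, against -0.74 over all features. That median falls between SIRB (-1.34) and HEMA3 (-0.17), and the 6 changes ran from -7.92 (Z-ISO) to 1.22 (AT1G78620). It therefore does not show that the single genes stood near the whole array. The genes beyond the first 4 were HEMA3 and AT1G78620.

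HEMA3 encodes a glutamyl-tRNA reductase, the enzyme class that opens tetrapyrrole synthesis. Its intensity at 4 °C was 1.41, 1.50, 0.920, 1.08, 0.798 and 0.941, and at 20 °C it was 1.32, 1.41, 1.03, 1.06, 1.21 and 1.30. The groups overlapped, with means of 1.11 ± 0.308 at 4 °C and 1.22 ± 0.163 at 20 °C (SD, n = 3) and a log2 change of -0.17 (95% interval -0.75 to 0.42, adjusted p = 0.58 in limma). With median centring it was called higher, at 0.75 (adjusted p = 0.032 in limma), where 30.0% of features were called higher. The log2 change was 0.20 after quantile normalization and 0.08 after cyclic loess, with no call. HEMA3 has close relatives in the genome, and binding of their transcripts to its probe was not tested.

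AT1G78620 encodes the phytyl-phosphate kinase VTE6, which returns phytol freed from chlorophyll to tocopherol synthesis. Its intensity at 4 °C was 0.769, 0.754, 0.570, 0.536, 0.500 and 0.419, and at 20 °C it was 0.168, 0.173, 0.260, 0.211, 0.414 and 0.347. All arrays at 4 °C were above all at 20 °C, though the lowest at 4 °C and the highest at 20 °C nearly met, and 8.56% of features were higher without overlap. The mean was 0.591 ± 0.154 at 4 °C and 0.262 ± 0.108 at 20 °C (SD, n = 3). AT1G78620 rose 2.34-fold, a log2 change of 1.22 ± 0.35 (SE, adjusted p = 0.028 in limma), where 6.87% of features were called higher. With median centring the log2 change was 2.14, with quantile normalization 2.12 and with cyclic loess 2.18, and it passed each time, beside 30.0%, 19.5% and 19.1% of features called higher. Of all features 5.06% were higher in all of these fits and as deposited. As deposited, the call was lost without arrays 1 and 2 at 4 °C (1.02, adjusted p = 0.075 in limma) or arrays 3 and 4 at 4 °C (1.26, adjusted p = 0.063), and without arrays 1 and 2 at 20 °C (0.96, adjusted p = 0.066) or arrays 3 and 4 at 20 °C (1.18, adjusted p = 0.080). Its rank averaged 71.0 ± 5.37 at 4 °C and 21.8 ± 10.01 at 20 °C.

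The single-name genes with the pattern most like each gene were sought among 612 candidates above 0 on all arrays, by the root mean square difference of centred log2 values over the 6 pair means. For CHLM these were AT5G09820, AT1G76220 and AT1G15410, with differences of 0.068, 0.075 and 0.094 and log2 changes of -2.06, -1.82 and -2.01. For AT1G74470 they were AT4G30150, AT4G20300 and ATSPS4F, a sucrose-phosphate synthase, with differences of 0.071, 0.071 and 0.078 and log2 changes of -0.16, 0.01 and -0.02, none of which passed. For SIRB they were AT3G17950, AT1G07040 and AT3G50880, with differences of 0.0913, 0.0970 and 0.0997 and log2 changes of -1.30, -1.28 and -1.26. These likenesses rest on 6 points that fall into 2 groups and are a description, with no test. Z-ISO was left out of this search because of its values at 0.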

How the data were processed

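The deposited table holds 1 linear intensity per probe for each of 12 arrays, never below 0 or above 100. The steps by which the authors scanned, background-corrected and scaled these intensities were not given in the sources used here. Of the 3439 probes, 692 carried a single gene name in the platform annotation, 870 carried several and 1877 none. Names were updated through gene identifiers to RefSeq (GCF_000001735.4 TAIR10.1). Averaging the 2 probes of one gene gave 3438 features. Coordinates are left out because the array's build is not stated.

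The members, lists and tests were chosen with earlier results of these data known. A value of 0 was replaced by the smallest positive value of its array before log2. Arrays 1 and 2, 3 and 4, and 5 and 6 of a group were averaged, since their deviations from the group mean correlated at 0.20 to 0.43 at 4 °C and 0.79 to 0.92 at 20 °C, and below 0 between pairs. The test was limma 3.58.1 (lmFit and eBayes in R 4.3.3), two-sided, 4 °C minus 20 °C, checked on simulated data. That simulation used only features above 0 on all arrays and planted as many rises as falls. It therefore does not cover values at 0 or a general fall like the one seen here. P-values were adjusted by Benjamini-Hochberg over all 3438 features, and calls counted over the 3378 with a positive value on any array. The fits with values of 0 or the dimmest features left out were adjusted over the features they kept. A fold is a ratio of geometric means. The number of arrays limits the precision. Genes named are the 4 members, each listed pathway gene on a single-name probe, and the 3 genes most like each member. Alternatives varied the scaling of the arrays, the use of single arrays or blocks, the treatment of 0 and of dim probes, an offset before log2, the variance prior and the arrays left out.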

Additional observations from a re-analysis of the deposited data

How the results depend on the processing

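CHLM kept its direction and call under all 29 alternatives run, with log2 changes of -2.04 to -1.04. SIRB kept its direction, and its call was lost after cyclic loess (-0.224), quantile normalization (-0.225) and median centring (-0.42). Z-ISO lost its call after quantile normalization (-7.76), and its log2 changes ran from -9.82 to -5.57 when pairs of arrays were left out, with the call lost for each pair at 20 °C. AT1G74470 reversed to 0.85 with median centring, and leaving out pairs gave -0.12 to 0.015, above 0 without arrays 1 and 2 at 20 °C. HEMA3 was above 0 after cyclic loess (0.081), quantile normalization (0.20) and median centring (0.75). The ratio of CHLM to AT1G74470 changed by -0.90 and -0.78 after quantile normalization and cyclic loess, that of CHLM to SIRB by -0.89 and -0.82, and that of AT1G74470 to SIRB by 0.0072 and -0.038. Those scalings change ratios by construction, and otherwise the cause was not tested. The number of called features was 1907 on pair means as deposited, 1349 to 2442 under the other settings and 1525 to 1812 without a pair. The 860 dimmest features held SIRB, so leaving them out gave no value there. No single left-out array changed a call.

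The values showed no pairing of the samples across groups by replicate number. Deviations of same-numbered pairs correlated at -0.30 to 0.12, and 1 of 3 pairs at 4 °C correlated best with its own number. So few pairs cannot settle whether the samples were paired by design. With the pair number as a replicate block the log2 changes were the same (CHLM -1.97, AT1G74470 -0.07, SIRB -1.34, Z-ISO -7.92), 1809 features were called, and AT1G78620 was no longer called (adjusted p = 0.090 in limma). With the replicate block on 12 arrays 2419 were called.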

Other observations

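Some values of Z-ISO and AT1G78620 were set against the whole array after they had been seen, so they are descriptions without a test. A group of 97 features (2.87%), Z-ISO among them, was above 0 on all arrays at 20 °C and at 0 on at least 2 arrays at 4 °C. Values of 0 were more common at 4 °C in general, with 181 to 226 probes at 0 per array, against 154 to 162 at 20 °C. AT1G78620 shifted up by 49.1 points in percentile rank at 4 °C, and 12 of the 3378 features, including it, shifted up by that much or more.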
